A study of Mus musculus with 8 samples.

Results

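The collagen genes were the 44 of 55573 genes in the deposited count table whose symbol reads Col, a type number, the letter a and a chain number. Of these, 35 were among the 16262 genes with enough reads to be tested. They were grouped by textbook class into 11 fibrillar chains, 6 chains of type IV, the network of basement membranes, 2 multiplexins, 1 anchoring fibril chain, 9 FACIT chains, which sit on the surface of fibrils, 6 beaded filament chains of type VI, 3 network-forming chains of types VIII and X, 4 transmembrane chains and 2 others. Tested members numbered 11 of 11 fibrillar, 4 of 6 type IV, 2 of 2 multiplexin, 1 of 1 anchoring fibril, 8 of 9 FACIT, 3 of 6 beaded filament, 1 of 3 network-forming, 4 of 4 transmembrane and 1 of 2 other chains.

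The RNA came from C57BL/6 mouse embryos of embryonic day 9.5, whose posterior trunk was cut off between somites 12 and 13, and was selected for poly(A) tails. All embryos were offspring of heterozygous parents that carried 1 knockout allele of Prtg, the gene of the transmembrane receptor protogenin. There were 3 libraries of homozygous knockouts (KO), 3 of heterozygotes (Het) and 2 of wild types (WT). The study's title names the transition of the Hox code between trunk and tail, and the genotypes address what the loss of 1 or both Prtg alleles changes in this tissue. The sources used here state neither how the allele was made nor how many embryos a library holds. The p-values therefore cover the spread between these libraries alone, which may in part be technical. Within each genotype the libraries differed widely in Xist, as given below, so not all were repeats of the same RNA.

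Libraries are named by genotype and the pair of numbers in the table's column names. Values are always listed in the order KO 1-3, KO 2-2 and KO 2-3, then Het 1-1, Het 2-4 and Het 2-5, then WT 1-2 and WT 2-1. Total counts lay between 16874860 and 17511964 reads. Prtg itself stood at 29.2, 27.7 and 25.8 FPKM in KO libraries, 27.2, 26.4 and 30.7 in Het libraries and 34.7 and 42.0 in WT libraries (FPKM: a gene's reads per kilobase of exonic length, scaled to the library's total). KO and Het libraries overlapped, and KO minus WT was -0.47 ± 0.10 on the log2 scale (SE, edgeR's quasi-likelihood test, Benjamini-Hochberg adjusted p = 0.148). DESeq2 and edgeR without a filter on low counts called Prtg lower in KO minus WT (adjusted p = 0.000836 and 0.000447), and neither called it in KO minus Het. The unfiltered edgeR fit also called it lower in KO minus the WT and Het mean (-0.25, adjusted p = 0.0326). Which exons the knockout removes is not stated in these sources, so reads over the whole gene check the genotype labels only weakly. Markers of head (0.210 to 0.566 summed FPKM over 4 genes) and heart (1.24 to 2.49 over 4 genes) were close to 0, and those of tailbud and presomitic mesoderm summed to 176.7 to 238.2 FPKM over 4 genes.

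Some libraries stood apart. KO 1-3 had the lowest summed level of the 4 dermomyotome markers (46.3 FPKM, against 68.9 to 80.2 in the other libraries). Most of that sum was Meox1 (41.4 FPKM in KO 1-3). Pax3 and Myf5 were also lowest in KO 1-3, but Pax7 was highest there (0.351 FPKM, against 0.169 to 0.321). KO 1-3 also had the highest sum of the 4 surface ectoderm markers (333.9 FPKM, against 213.7 to 270.8). Most of it was Krt8 (172.0 FPKM) and Krt18 (126.2), while Trp63 (2.14) lay within the range of the other libraries (1.83 to 2.53). The libraries with 1 as their first column number, called column set 1 here (KO 1-3, Het 1-1 and WT 1-2), all had Xist, made by the X chromosome that is silenced in females, at 813 to 1098 CPM. So did Het 2-4 at 806 CPM, while the other 4 libraries of column set 2 had 1.52 to 3.57 CPM. What the column sets stand for is not stated in these sources, and set and sex overlap in all but Het 2-4.

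Collagens are secreted or membrane-bound proteins whose chains carry repeats of glycine with proline-rich partners and wind into a rope-like helix. Fibrillar collagens assemble into the fibrils that give mesenchyme, dermis, tendon and bone their strength, and their chains are cut at the ends by proteases and crosslinked outside the cell. Type IV collagens form the sheet-like network under epithelia and around vessels, and multiplexins are proteoglycans attached to those sheets. In an embryo of this stage the somites, notochord, neural tube, gut and surface ectoderm are each wrapped in basement membrane, and the cartilage collagens first appear around the notochord and in the ventral somite. In whole tissue, fewer cells of a type and less RNA per cell cannot be told apart.

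Of the 44 genes, 35 had a promoter entry in RefSeq (38 entries of 250 bases before to 50 after a transcript start, GRCm38.p6). The windows of Col4a1 and Col4a2 are shown because, of the 7 chain ratios computed, theirs varied least between libraries. They start from opposite strands of chromosome 8, Col4a1 on the minus strand (window chr8:11312777-11313076) and Col4a2 on the plus strand (window chr8:11312555-11312854). The capitals mark the 78 bases that both windows hold, chr8:11312777-11312854, read from opposite strands.
Col4a1: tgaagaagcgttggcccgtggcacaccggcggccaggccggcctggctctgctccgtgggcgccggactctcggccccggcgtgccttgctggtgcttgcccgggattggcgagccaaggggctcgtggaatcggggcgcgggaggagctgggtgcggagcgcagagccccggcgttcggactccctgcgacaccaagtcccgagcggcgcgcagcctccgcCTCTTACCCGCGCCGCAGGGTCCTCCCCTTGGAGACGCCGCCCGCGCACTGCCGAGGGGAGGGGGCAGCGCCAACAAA
Col4a2: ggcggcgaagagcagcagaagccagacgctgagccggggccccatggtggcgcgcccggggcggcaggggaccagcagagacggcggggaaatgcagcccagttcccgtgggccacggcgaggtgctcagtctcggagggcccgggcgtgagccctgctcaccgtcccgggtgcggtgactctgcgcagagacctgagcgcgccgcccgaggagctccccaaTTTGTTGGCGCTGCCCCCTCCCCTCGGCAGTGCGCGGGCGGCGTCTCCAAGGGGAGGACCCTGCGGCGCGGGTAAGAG
The deposited spans of the genes themselves (chromosome 8, 11198423 to 11312826 for Col4a1 and 11312805 to 11449287 for Col4a2) overlap by 22 exonic bases. The kit as named in the labels does not mark strand, so reads inside those bases cannot be assigned to either gene. Other head-to-head pairs were Col4a5 and Col4a6 on chromosome X, whose starts lie 1309 bases apart, and Col4a3 and Col4a4 on chromosome 1, 72 bases apart.

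The window of Col25a1 is shown because this was the collagen gene called between genotypes. It lies on the plus strand at chr3:130180595-130180894. The capitals mark matches on either strand of GGGCGG (the GC box core), CCAAT (the CCAAT box), TATAAA (the TATA box) and CAGAC (the SMAD box), none of which overlapped.
Col25a1: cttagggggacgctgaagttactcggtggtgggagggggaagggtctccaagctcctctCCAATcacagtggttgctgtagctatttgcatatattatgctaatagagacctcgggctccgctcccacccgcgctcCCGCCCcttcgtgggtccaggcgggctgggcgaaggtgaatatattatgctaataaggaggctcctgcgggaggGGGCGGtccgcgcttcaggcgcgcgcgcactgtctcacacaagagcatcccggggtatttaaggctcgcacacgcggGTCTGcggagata
Matches numbered 2 for GGGCGG, 1 for CCAAT, 1 for CAGAC and 0 for TATAAA. The RefSeq start lies 49344 bases after the start of the deposited gene (chromosome 3, 130131501 to 130599877), so the window belongs to 1 of its possible starts. Over all 32851 promoter windows of that length, 35.66% held GGGCGG, 37.41% CCAAT, 13.62% TATAAA and 49.59% CAGAC. Among the 38 collagen windows the shares were 60.53%, 34.21%, 13.16% and 52.63% in the same order. These are counts of letters in a window and show no binding.

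The most abundant collagen RNAs per length were those of the basement membrane. Col18a1, the multiplexin whose end fragment is endostatin, averaged 72.7 FPKM over the 8 libraries and ranked 635 among all genes. Its levels were 75.0, 69.3 and 68.8 FPKM in KO libraries, 75.3, 73.4 and 70.8 in Het libraries and 77.7 and 71.2 in WT libraries. The spread was narrow and the genotypes overlapped. Col4a1 and Col4a2, the chains of the common type IV network, followed. Col4a1 stood at 53.6, 49.1 and 48.1 FPKM in KO libraries, 56.8, 52.5 and 52.1 in Het libraries and 58.1 and 52.4 in WT libraries. Col4a2 stood at 33.8, 30.9 and 30.0 FPKM in KO libraries, 35.6, 32.1 and 31.3 in Het libraries and 37.7 and 31.7 in WT libraries. Within each genotype the library of column set 1 was the highest for all of these genes.

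The other type IV chains were lower. Col4a5, on chromosome X, averaged 5.97 FPKM. Its head-to-head neighbour Col4a6 averaged 0.261 FPKM, with 26 to 47 reads per library. Its levels were 0.346, 0.264 and 0.265 FPKM in KO libraries, 0.305, 0.192 and 0.252 in Het libraries and 0.205 and 0.256 in WT libraries, and the genotypes overlapped. Col4a3 and Col4a4, the chains known from kidney glomeruli, had 40 and 26 reads over all 8 libraries and were not tested. Col15a1, the other multiplexin, stood at 0.509, 1.61 and 1.25 FPKM in KO libraries, 1.76, 1.63 and 1.01 in Het libraries and 1.93 and 1.13 in WT libraries, with KO 1-3 below all others. Col7a1, the chain of the fibrils that anchor epidermis to dermis, had 0.759, 0.710 and 0.733 FPKM in KO libraries, 0.853, 0.767 and 0.643 in Het libraries and 0.904 and 0.686 in WT libraries, and the genotypes overlapped.

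Among fibrillar chains the type I, II, III and V genes led. Col1a1, the main chain of bone and dermis fibrils, averaged 28.3 FPKM. Its levels were 34.0, 24.2 and 21.0 FPKM in KO libraries, 40.6, 27.9 and 20.9 in Het libraries and 35.1 and 22.4 in WT libraries. Here the genotypes overlapped, and the 3 libraries of column set 1 were the highest. Col3a1, of soft connective tissue and vessel walls, stood at 17.8, 20.1 and 19.0 FPKM in KO libraries, 25.7, 22.5 and 17.5 in Het libraries and 24.0 and 15.7 in WT libraries. Col2a1, the cartilage and notochord collagen, averaged 14.6 FPKM, Col5a1, which seeds fibrils, 11.4, Col1a2, the partner of Col1a1, 11.1 and Col5a2 8.29. Per length the fibrillar order was therefore Col1a1, Col3a1, Col2a1, Col5a1, Col1a2 and Col5a2, but Col5a1 and Col1a2 did not differ beyond their spread between libraries (9.68 to 14.5 and 9.73 to 13.6 FPKM). This order depends on the exonic lengths, which were 6563 bases for Col1a1 and 12426 for Col1a2. In reads over all libraries Col3a1 (27290) was above Col1a1 (25387), and Col1a2 (18971) was above Col2a1 (18502) and Col5a1 (13210). Col27a1 (2.42 FPKM) and the cartilage chains Col11a1 (1.79) and Col11a2 (1.10) came next, and Col5a3 was at 0.0708 FPKM.

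The remaining classes held few abundant members. Col26a1, a short secreted collagen grouped under other, averaged 8.73 FPKM. Of the transmembrane chains Col23a1 averaged 6.32 FPKM, Col13a1, known from the neuromuscular junction, 3.58, Col17a1, of the epithelial attachment to the basement membrane, 0.372, and Col25a1, which is needed for motor nerves to enter muscle in mice, 0.203. Col9a1, a cartilage FACIT chain, stood at 4.28, 4.08 and 4.25 FPKM in KO libraries, 4.34, 4.79 and 4.03 in Het libraries and 4.64 and 3.67 in WT libraries. Col14a1, a FACIT chain of soft connective tissue, stood at 1.20, 1.01 and 1.07 FPKM in KO libraries, 1.58, 1.02 and 0.722 in Het libraries and 1.38 and 0.949 in WT libraries. For both chains the genotypes overlapped. The type VI chains Col6a1, Col6a2 and Col6a3, which form beaded filaments, averaged 1.03, 0.599 and 0.127 FPKM. Col8a2, a chain of the network under corneal endothelium, had 0.217 FPKM.

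In all, 21 members averaged at least 1 FPKM, 12 of them at least 5, and 23 were below 1. The 9 untested members had 3 to 40 reads in all and at most 10 in any library. These were Col10a1 (hypertrophic cartilage), Col28a1, Col19a1, Col6a4, Col6a5, Col6a6, Col8a1, Col4a3 and Col4a4. A gene with 0 reads in a library could still have up to 3 there, for counting error alone. Col8a1 had 0, 0 and 1 reads in KO libraries, 5, 2 and 3 in Het libraries and 3 and 3 in WT libraries. Col28a1, the other chain outside the main classes, had 0 reads in all KO libraries, 1, 0 and 0 in Het libraries and 1 and 3 in WT libraries. Both are too close to the floor for a comparison.

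**Figure D1:**
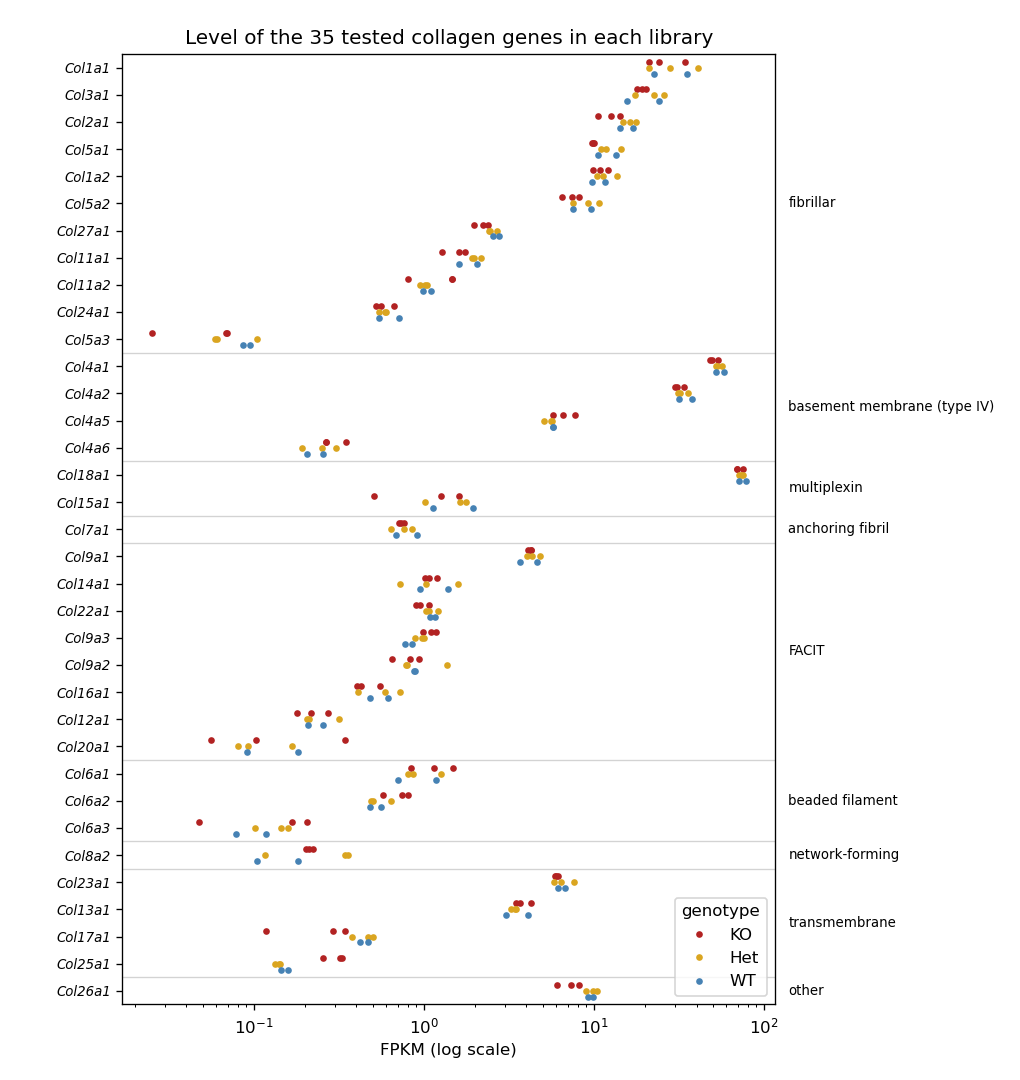
FPKM of the 35 tested collagen genes in each library (log axis), grouped by class. Points are single libraries, coloured KO, Het and WT. Col18a1, Col4a1 and Col4a2 lie at the top of the scale, and in most genes the genotypes overlap.

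Summed by class, fibrillar chains reached 91.5 ± 5.32 FPKM in KO libraries, 107 ± 20.3 in Het libraries and 102 ± 21.5 in WT libraries (SD, n = 3, 3 and 2 here and below). Type IV chains summed to 88.8 ± 6.00 FPKM in KO libraries, 92.5 ± 5.03 in Het libraries and 95.9 ± 8.32 in WT libraries. The multiplexins summed to 72.1 ± 2.95 FPKM in KO libraries, 74.6 ± 2.63 in Het libraries and 75.9 ± 5.18 in WT libraries. Each difference of KO from Het or WT was smaller than the SD of the group it was set against. Of the collagen total per length, the fibrillar class held 30.9 to 37.9%, type IV 28.9 to 32.3% and the multiplexins 22.7 to 26.1% across libraries. All 44 genes together took 0.206 to 0.262% of the reads of a library.

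For most collagen genes the KO libraries overlapped the others, and 1 gene was called higher in KO. The comparison of KO with the average of the WT and Het groups, all with at least 1 intact allele, called 1 of 35 members at an adjusted p below 0.05, where 0.332% of all tested genes were called. That gene was Col25a1, a transmembrane collagen of neurons and muscle. It had 71, 73 and 58 reads in KO libraries, 31, 31 and 30 in Het libraries and 35 and 32 in WT libraries. Per length this was 0.322, 0.329 and 0.256 FPKM in KO libraries, 0.142, 0.141 and 0.133 in Het libraries and 0.158 and 0.144 in WT libraries. Every KO library lay above every other library, and the WT libraries lay just above the Het libraries. Col25a1 rose by 1.06 ± 0.18 on the log2 scale (SE, edgeR's quasi-likelihood test, Benjamini-Hochberg adjusted p = 0.0408).

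The call of Col25a1 was close to its threshold. It held in 1 of the 8 fits that left out a library, the one without KO 2-3 (log2 1.17, edgeR adjusted p = 0.0477). The other 7 fits gave 1.00 to 1.09 with edgeR adjusted p up to 0.149, which was reached without WT 1-2, and without KO 1-3 it was 1.02 (edgeR adjusted p = 0.0804). With the summed level of Y-linked genes in each library as a covariate, its edgeR adjusted p was 0.0502. No annotated gene shares exonic bases with Col25a1.

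In the pairwise comparisons edgeR called 0 of 35 members in KO minus WT (0.0369% of all tested genes), 0 of 35 in KO minus Het (0.191%) and 0 of 35 in Het minus WT (0%). DESeq2, counted over genes to which it gave an adjusted p, called 0 of 36 members in KO minus WT (0.511% of all genes), 3 of 32 in KO minus Het (1.15%), 0 of 44 in Het minus WT (0.00347%) and 3 of 35 in KO minus the WT and Het mean (1.26%). The 3 were Col25a1, Col26a1 and Col2a1 both times. EdgeR without a filter on low counts called 1 of 44 members, Col26a1, in KO minus WT (0.711% of all genes) and 0 of 44 in Het minus WT (0.0382%). It called 4 of 44, Col5a1 beside these 3, both in KO minus Het (1.52%) and in KO minus the WT and Het mean (1.78%). At an unadjusted p below 0.05, edgeR gave 6 members in KO minus WT, which is 17.1% of those tested against 7.19% of all genes. It gave 8 members in KO minus Het, 22.9% against 10.9% of all genes, 0 in Het minus WT, against 1.80%, and 9 in KO minus the WT and Het mean, 25.7% against 12.0%. The 3 comparisons with KO share their KO libraries. Col25a1 stood at 1.00 ± 0.23 in KO minus WT (edgeR adjusted p = 0.232), 1.13 ± 0.21 in KO minus Het (edgeR adjusted p = 0.0699) and -0.12 ± 0.24 in Het minus WT.

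**Figure D2:**
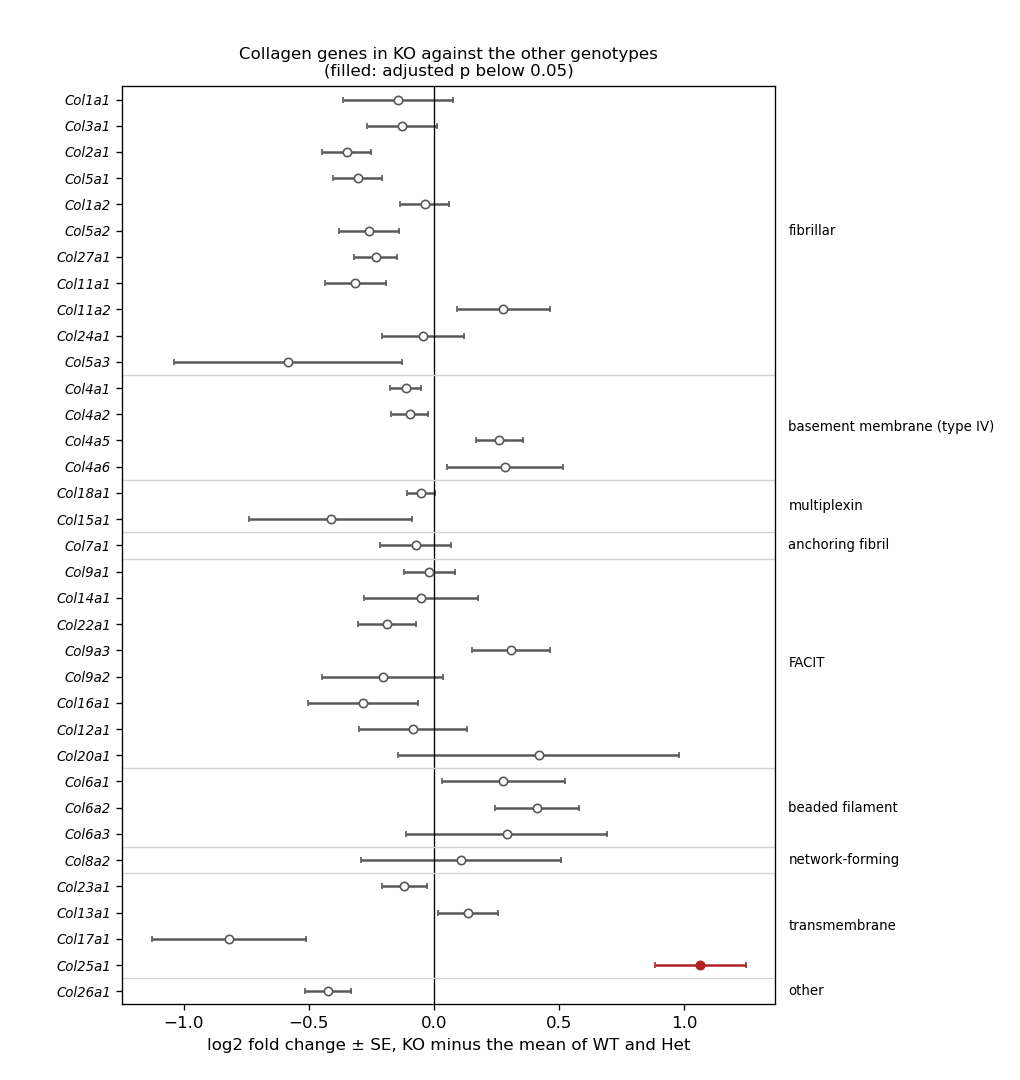
Log2 fold change of the 35 tested collagen genes, KO minus the WT and Het mean, with bars of 1 SE, grouped by class. The filled point, Col25a1 at 1.06 ± 0.18, is the 1 gene with an edgeR adjusted p below 0.05, and 10 of 11 fibrillar genes lie below 0.

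Beyond the called gene, 7 of 35 tested members (20%), Col25a1 among them, had all KO libraries above or all below the other 5, where 8.69% of all tested genes did. Col25a1 and Col4a5 were above, and Col26a1, Col2a1, Col5a1, Col27a1 and Col17a1 below. Col26a1 had 6.06, 8.11 and 7.33 FPKM in KO libraries, 10.4, 9.80 and 8.92 in Het libraries and 9.88 and 9.26 in WT libraries. KO was lower throughout, with a value of -0.42 ± 0.09 (edgeR adjusted p = 0.0985), and DESeq2 called it (-0.43, adjusted p = 0.00256). Without KO 1-3, its lowest library, the value was -0.32 (edgeR adjusted p = 0.101).

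Col2a1 had 10.5, 14.2 and 12.5 FPKM in KO libraries, 17.5, 16.2 and 14.8 in Het libraries and 16.9 and 14.2 in WT libraries. KO 2-2 and WT 2-1 were almost equal, so the groups were separated by little. Its value was -0.35 ± 0.10 (edgeR adjusted p = 0.218), DESeq2 called it (adjusted p = 0.0307), and without KO 1-3 it was -0.24. Col5a1 had 9.68, 10.0 and 9.87 FPKM in KO libraries, 14.5, 11.8 and 11.0 in Het libraries and 13.5 and 10.6 in WT libraries. The KO libraries of Col5a1 were close together and the others spread upward, with the column set 1 libraries of Het and WT highest (-0.30 ± 0.10, edgeR adjusted p = 0.273). It shares 113 and 99 exonic bases with opposite-strand genes of 62 and 64 reads in all, small beside its own 1399 to 2071 reads per library.

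Col4a5, on the X chromosome, had 7.75, 6.52 and 5.71 FPKM in KO libraries, 5.69, 5.07 and 5.60 in Het libraries and 5.70 and 5.70 in WT libraries. KO 2-3 barely exceeded the others, and the value of 0.26 ± 0.09 (edgeR adjusted p = 0.321) was 0.14 without KO 1-3. Col17a1 had 0.117, 0.292 and 0.342 FPKM in KO libraries, from 12, 30 and 36 reads, against 0.375, 0.500 and 0.469 in Het libraries and 0.467 and 0.417 in WT libraries (-0.82 ± 0.31, edgeR adjusted p = 0.336). Col17a1 is expressed by surface epithelium, whose 4 markers summed to 243.9 to 333.9 FPKM in KO libraries and 213.7 to 252.5 in the other libraries. The marker sums overlapped between KO and the other libraries. Krt8 (mean 122.9 FPKM) and Krt18 (98.5) held most of each sum, beside Epcam (26.0) and Trp63 (2.20). The part of these cells in the level of Col17a1 was not tested. Col27a1, a cartilage fibrillar chain, had 1.95, 2.38 and 2.21 FPKM in KO libraries, 2.44, 2.40 and 2.69 in Het libraries and 2.55 and 2.74 in WT libraries (-0.23 ± 0.09, edgeR adjusted p = 0.327).

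**Figure D3:**
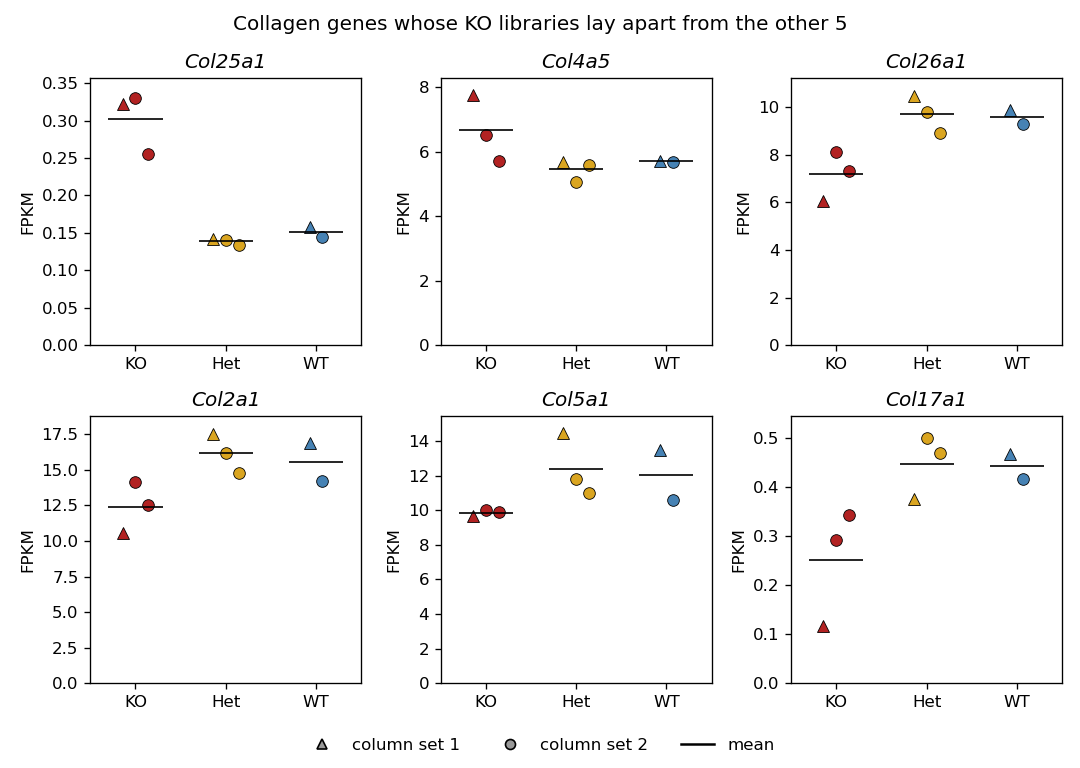
FPKM of 6 of the 7 tested collagen genes whose KO libraries did not overlap the other 5, each on its own axis from 0. Points are libraries (triangles, column set 1; circles, column set 2), lines are genotype means. Col25a1 and Col4a5 are higher in KO, and Col26a1, Col2a1, Col5a1 and Col17a1 lower.

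By class, the fibrillar chains lay mostly below 0 in KO minus the WT and Het mean. Their median was -0.23, with 10 of 11 values below 0 and 0 called by edgeR (4 lower at an unadjusted p below 0.05, and 1, Col2a1, called lower by DESeq2), beside a median of 0.01 and 48.4% below 0 over all tested genes. Of all tested genes 12.0% had an unadjusted p below 0.05 in either direction, the share to set beside each class. DESeq2 called 1.26% of all genes. Among the fibrillar chains Col11a2, the exception, was at 0.28. Across all alternative fits the fibrillar median ran from -0.29 to -0.17, and the number of values below 0 ran from 7 without WT 1-2 to 10. Col1a1 (-0.14 ± 0.22), Col1a2 (-0.04 ± 0.10) and Col3a1 (-0.13 ± 0.14) were within 1 SE of 0, and the sign of each of the 3 turned in some alternative fits. So the lower end of the class was made of Col5a3 at -0.58 ± 0.46, from 3 to 12 reads a library, Col2a1, Col11a1 at -0.31 ± 0.12, Col5a1, Col5a2 at -0.26 ± 0.12 and Col27a1.

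The type IV chains fell into pairs. Col4a1 (-0.11 ± 0.06, edgeR adjusted p = 0.500) and Col4a2 (-0.10 ± 0.07) were below 0, and Col4a5 and Col4a6 (0.28 ± 0.23) above, for a class median of 0.08 that was -0.0052 without KO 1-3. Of the 4, edgeR and DESeq2 called 0, and 1, Col4a5, had an unadjusted p below 0.05. The multiplexins Col18a1 (-0.05 ± 0.06) and Col15a1 (-0.41 ± 0.33) were below 0. Without KO 1-3, the library with the lowest Col15a1, the value of Col15a1 was -0.06. Col7a1 was at -0.07 ± 0.14.

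The 3 tested type VI chains were all above 0, with a median of 0.29, and 0 were called by edgeR or DESeq2 (1, Col6a2, at an unadjusted p below 0.05). Col6a2 stood at 0.741, 0.800 and 0.576 FPKM in KO libraries, 0.641, 0.488 and 0.504 in Het libraries and 0.555 and 0.484 in WT libraries, which overlapped (0.41 ± 0.17, edgeR adjusted p = 0.362). Col6a1 stood at 1.49, 1.15 and 0.834 FPKM in KO libraries, 1.26, 0.860 and 0.801 in Het libraries and 1.17 and 0.706 in WT libraries. Its value was 0.28 ± 0.25, and 0.05 without KO 1-3. The class median ran from 0.14 without KO 1-3 to 0.54 without KO 2-3, and 1 of the 3 chains was below 0 without KO 2-2. Of the 8 tested FACIT chains 6 were below 0, with a median of -0.07 that was 0.0049 without Het 1-1 and 0.027 without WT 1-2. The most raised of them in relation to its error was Col9a3, with 1.10, 0.986 and 1.17 FPKM in KO libraries, 0.969, 0.886 and 1.00 in Het libraries and 0.774 and 0.848 in WT libraries (0.31 ± 0.16, edgeR adjusted p = 0.459). It shares 234 exonic bases with Tcfl5 on the opposite strand, whose reads cannot be told apart there.

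The transmembrane chains had no common direction. Beside Col25a1 at 1.06 and Col17a1 at -0.82, Col23a1 stood at 5.89, 6.09 and 5.94 FPKM in KO libraries, 7.57, 6.39 and 5.81 in Het libraries and 6.74 and 6.10 in WT libraries (-0.12 ± 0.09). Col13a1 stood at 3.66, 4.28 and 3.46 FPKM in KO libraries, 3.24, 3.45 and 3.43 in Het libraries and 3.03 and 4.08 in WT libraries (0.14 ± 0.12). Both overlapped between genotypes. Over all 35 members the median was -0.08, with 24 below 0. Leaving out 1 library gave medians from -0.15 without WT 2-1 to -0.0121 without WT 1-2, where 18 members were below 0, and with the Y-linked covariate it was -0.0245 with 19 below 0.

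No collagen gene was called between Het and WT. The members with the smallest unadjusted p in Het minus WT were Col8a2, Col1a2 and Col9a3. Col8a2 had 16, 17 and 16 reads in KO libraries, 27, 26 and 9 in Het libraries and 14 and 8 in WT libraries, and Het minus WT was 0.91 ± 0.51 (edgeR adjusted p = 0.9999, unadjusted p = 0.103). Col1a2 had 12.0, 10.8 and 9.82 FPKM in KO libraries, 13.6, 11.2 and 10.4 in Het libraries and 11.6 and 9.73 in WT libraries, and Het minus WT was 0.14 ± 0.12. The Het and WT libraries overlapped for Col8a2 and Col1a2. For Col9a3 all Het libraries lay above the WT libraries, by little (0.23 ± 0.20), and the adjusted p of these 3 genes was 0.9995 or more in every fit tried.

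The genes that modify, cut and crosslink collagens gave 0 calls by edgeR with its filter on low counts or by DESeq2 in KO minus the WT and Het mean. EdgeR without the filter, which called 1.78% of all genes, called 3 of 22 synthesis genes (P4ha1, P4ha2 and Plod2) and 1 of 18 processing genes (Loxl2), all higher. In each of them KO 1-3 was far above the other KO libraries. P4ha2 had 18.8, 7.06 and 8.19 FPKM in KO libraries, 6.83, 6.20 and 6.47 in Het libraries and 7.16 and 7.31 in WT libraries. Plod2 had 23.4, 12.3 and 12.1 FPKM in KO libraries, 11.6, 12.7 and 11.7 in Het libraries and 11.5 and 12.4 in WT libraries. In this comparison 12.0% of all tested genes had an unadjusted p below 0.05, in either direction. Of 22 genes for synthesis and folding, 15 were above 0 (median 0.03, 4 at an unadjusted p below 0.05, all higher). P4ha1, a subunit of the prolyl hydroxylase that stabilises the helix, had 38.9, 23.1 and 22.5 FPKM in KO libraries, 21.5, 19.6 and 21.3 in Het libraries and 21.2 and 20.2 in WT libraries. KO 1-3 was far above the rest, and the value of 0.44 ± 0.15 (edgeR adjusted p = 0.302) was 0.14 without it, while the unfiltered fit gave 0.44 (adjusted p = 0.00181). Of 18 genes for processing and crosslinking, 14 were below 0 (median -0.22, 3 lower and 1 higher at an unadjusted p below 0.05). Loxl2, a lysyl oxidase that crosslinks chains, had 33.8, 13.9 and 14.5 FPKM in KO libraries, 12.9, 12.4 and 12.9 in Het libraries and 15.0 and 13.6 in WT libraries. Its value of 0.63 ± 0.24 (edgeR adjusted p = 0.341) was 0.08 without KO 1-3, while the unfiltered fit gave 0.62 (edgeR adjusted p = 0.00107).

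Partners of type IV collagen in basement membranes were above 0 in 11 of 18 genes (median 0.06), and edgeR called 0 of them (3 higher and 1 lower at an unadjusted p below 0.05). The share of all tested genes below that p was 12.0%, for this list and those that follow. Fbln1, an elastic fibre and basement membrane protein, had 54.9, 48.4 and 48.9 FPKM in KO libraries, 44.8, 40.4 and 39.7 in Het libraries and 43.8 and 44.2 in WT libraries. KO was higher throughout (0.25 ± 0.06, edgeR adjusted p = 0.174), and DESeq2 called it (adjusted p = 0.0306) and Nid2, a basement membrane linker, as did edgeR without the filter. Of all genes DESeq2 called 1.26% and edgeR without the filter 1.78%. Of 10 tested genes listed as collagen receptors 5 were above and 5 below 0 (median -0.03). EdgeR and DESeq2 called 0, and 2 were higher and 2 lower at an unadjusted p below 0.05. Without the filter edgeR called 1 of the 12 listed genes, Dag1, higher. Dag1 encodes dystroglycan, which binds laminins and is not a receptor of collagens. Itga11, a subunit of an integrin that binds type I collagen, had 0.286, 0.251 and 0.267 FPKM in KO libraries, 0.162, 0.115 and 0.101 in Het libraries and 0.160 and 0.125 in WT libraries (1.00 ± 0.29, edgeR adjusted p = 0.235). Of 13 regulators of matrix genes 9 were below 0 (median -0.12), with 0 called by edgeR or DESeq2 and 1 higher and 2 lower at an unadjusted p below 0.05. Tgfb2, a growth factor that raises collagen transcription in many cells, had 3.85, 3.22 and 2.80 FPKM in KO libraries, 2.73, 2.14 and 2.27 in Het libraries and 2.43 and 2.30 in WT libraries (0.48 ± 0.13, edgeR adjusted p = 0.201). Without the filter edgeR called Tgfb2 higher (0.47, adjusted p = 0.0316) and Twist1, a mesenchymal transcription factor, lower.

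Markers of cell types that make collagens moved with genotype in places. The lateral plate and hindlimb genes Pitx1 (-0.47 ± 0.07, edgeR adjusted p = 0.0281) and Tbx4 (-0.93 ± 0.16, edgeR adjusted p = 0.0395) fell in KO libraries, as did Wt1 of the intermediate mesoderm and mesothelium (-1.30 ± 0.22, edgeR adjusted p = 0.0426). Each kept its call in 2 of the 8 fits that left out a library. Hand2, also of the lateral plate and limb list, was lower in every KO library. It had 29.7, 35.9 and 35.7 FPKM in KO libraries, 39.8, 45.2 and 42.0 in Het libraries and 39.7 and 39.5 in WT libraries. Without the filter edgeR called Hand2, Pitx1 and Tbx4 lower. The remaining markers of the same tissues went the other way. Of the lateral plate and limb markers Hand1 was at 0.27 ± 0.08 (edgeR adjusted p = 0.218, and called higher without the filter) and Foxf1 at 0.27 ± 0.14. Of the intermediate mesoderm markers Pax2 was at 0.28 ± 0.14, Lhx1 at 0.19 ± 0.15 and Osr1 at 0.15 ± 0.11, so that 3 of these 4 lay above 0 (median 0.17). The 5 lateral plate and limb markers, of which 2 were called lower and 0 higher and 2 lay above 0, summed to 136.9 to 151.2 FPKM in KO libraries and 151.5 to 171.2 in the other libraries. The 5 sclerotome and cartilage markers summed to 31.5 to 36.9 FPKM in KO libraries and 30.7 to 36.6 in the other libraries. Most of that sum was Foxc2 (mean 24.7 FPKM), so it says little of the other members. EdgeR and DESeq2 called 0 of the 5, of which 3 lay below 0 and 2 above. At an unadjusted p below 0.05, 1 was lower, Pax9 (-0.78 ± 0.23, edgeR adjusted p = 0.245). The 4 neural tube markers summed to 31.5 to 37.6 FPKM in KO libraries and 28.8 to 37.5 in the other libraries. The 5 primitive erythroid markers summed to 5177 to 8354 FPKM in KO libraries and 3712 to 7477 in the other libraries. All 4 surface ectoderm markers were above 0, and DESeq2, which called 1.26% of all genes, called 1, Krt18, higher. EdgeR without the filter, which called 1.78% of all genes, called Krt8 and Krt18 higher. It also called the neural tube marker Pax6 and the tailbud marker Cdx2 higher. In the lists for notochord, dermomyotome, neural crest, endothelium, yolk sac endoderm, tailbud, head and heart edgeR with its filter and DESeq2 called 0 genes. At an unadjusted p below 0.05, 2 endothelial genes were lower and 1 tailbud gene higher, where 12.0% of all tested genes passed. The part of these sums in the fibrillar values was not tested.

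Between the column sets, with genotype kept in the fit, collagen genes leaned to higher levels in set 1. This comparison was added after the values were seen. EdgeR called 1 of 35 members, Col1a1, where 0.0492% of all tested genes were called. Col1a1 had 34.0, 40.6 and 35.1 FPKM in the set 1 libraries KO 1-3, Het 1-1 and WT 1-2. In set 2 it had 24.2 and 21.0 FPKM in KO libraries, 27.9 and 20.9 in Het libraries and 22.4 in the WT library, so no set 2 library reached set 1. The set difference was 0.66 ± 0.09 (edgeR adjusted p = 0.0422), and in the fits that left out a library it ran from 0.59 to 0.72. Without Het 1-1, KO 2-2, KO 2-3, WT 1-2 or WT 2-1 it was not called (highest edgeR adjusted p = 0.243). With the Y-linked level as a further covariate it was 0.42 (edgeR adjusted p = 1), so the sets and sex could not be told apart here.

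Of the 35 members 28 were above 0 in set 1 minus set 2, with a median of 0.15, beside a median of 0.00196 over all tested genes. Nominally (p below 0.05, not adjusted) 9 members differed, all higher in set 1, which is 25.7% against 11.6% of all genes. Set 1 lay wholly above set 2 in 8 of 35 members (22.9%), where 6.95% of all tested genes had set 1 all above or all below. These were Col1a1, Col1a2, Col4a1, Col4a2, Col18a1, Col6a1, Col14a1 and Col9a2. The differences of the basement membrane chains were small, 0.14 ± 0.04 for Col4a1 (edgeR adjusted p = 0.341), 0.18 ± 0.04 for Col4a2 (edgeR adjusted p = 0.264) and 0.10 ± 0.04 for Col18a1 (edgeR adjusted p = 0.407). Without KO 1-3, the set difference was called in 5 members, Col1a1, Col1a2, Col3a1, Col5a1 and Col5a2. That fit called 153 genes in all, against 8 with every library, so the calls rose among all genes too. KO 1-3 was the lowest of the 3 set 1 libraries for Col3a1, Col5a1 and Col5a2. Related lists leaned the same way, with 16 of 18 basement membrane partners, 18 of 22 synthesis genes and 15 of 18 processing genes above 0. EdgeR called 0 in each, and 8, 6 and 6 were higher at an unadjusted p below 0.05. Of the partners Hspg2, which encodes perlecan, had the smallest edgeR adjusted p (0.29 ± 0.04, edgeR adjusted p = 0.0785). With the column set in the fit, Col25a1 was still called in KO minus the WT and Het mean (1.07, edgeR adjusted p = 0.0464).

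**Figure D4:**
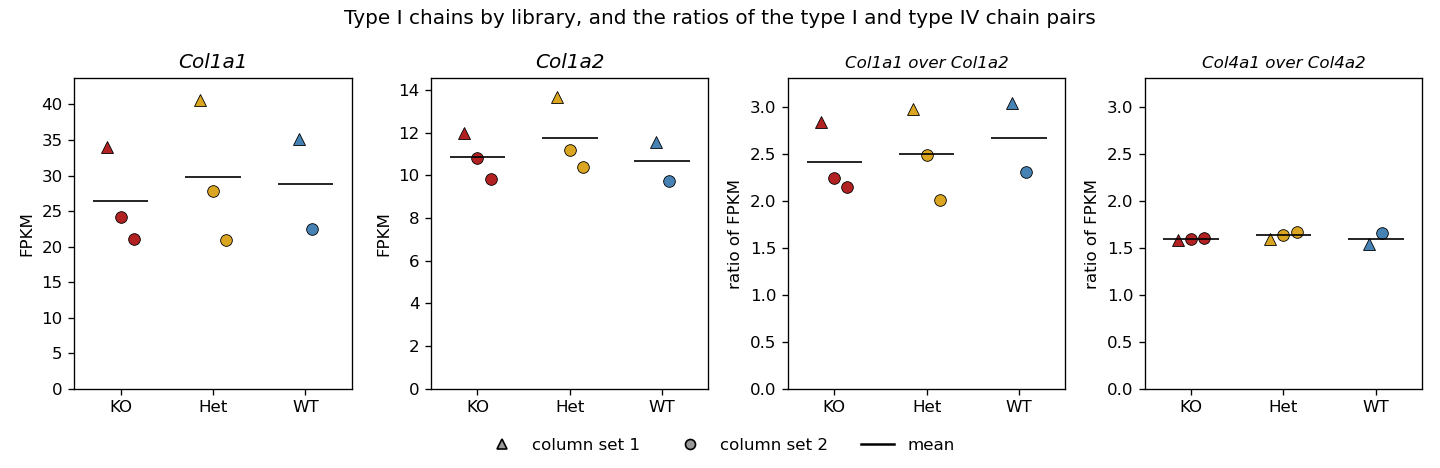
FPKM of Col1a1 and Col1a2 and the ratios of Col1a1 over Col1a2 and Col4a1 over Col4a2 in each library, by genotype, with axes from 0. Triangles are column set 1, circles column set 2 and lines genotype means. Col1a1 is highest in the 3 triangles, and the type IV ratio stays between 1.54 and 1.66.

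Chains that assemble together differed in how steadily their RNAs kept step. The FPKM ratio of Col4a1 over Col4a2 was 1.59, 1.59 and 1.60 in KO libraries, 1.60, 1.63 and 1.66 in Het libraries and 1.54 and 1.65 in WT libraries, so the highest was 1.08 times the lowest. The ratio of Col1a1 over Col1a2 was 2.84, 2.24 and 2.14 in KO libraries, 2.97, 2.49 and 2.01 in Het libraries and 3.03 and 2.30 in WT libraries, a span of 1.51 times. The type I ratio was highest in the 3 libraries of column set 1. Within each genotype the type IV ratio was instead lowest in the library of column set 1, by very little in KO libraries (1.587 against 1.592 and 1.602). Across genotypes the type IV ratios of the 2 sets overlapped. The ratio of Col5a1 over Col5a2 lay between 1.22 and 1.49, and that of Col6a1 over Col6a2 between 1.43 and 2.12. The size of each ratio depends on the exonic lengths, while its span between libraries does not. In reads over all libraries Col6a2 (683) exceeded Col6a1 (620). Col6a3, the third chain of type VI and the longest, was at 0.0572 to 0.183 of Col6a1, from 10 to 42 reads per library. In type IX, Col9a1 over Col9a2 ran from 3.19 to 6.58 and Col9a3 over Col9a2 from 0.713 to 1.81, where Col9a2 had 35 to 71 reads per library. In all 7 ratios the KO libraries overlapped the others.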

How the data were processed

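Poly(A) RNA of 8 mouse libraries was compared by genotype. The submitters' processing notes list the builds mm10 and GRCm38 and the tools HTSeq 0.6.1, HISAT2 2.0.1 and cutadapt 1.9.1, with no order. Neither the gene annotation's release nor the strand option used in counting is given in the sources used here, and the kit, as named in the labels' protocols, does not mark strand. The authors deposited 1 table of raw read counts, with the symbol, position and exonic length of each gene. Its 8 columns of per-library FPKM were not used, and FPKM was computed here from the counts, the totals and the exonic lengths. For the collagen genes the exonic length counts every annotated exon, so orders of genes, chain ratios and class shares depend on it. The numbers in the column names match none of the labels' sample numbers, so columns were assigned to genotype only.

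Counts were tested with edgeR 4.0.16 (R 4.3.3, limma 3.58.1): TMM scaling (factors 0.996 to 1.006), the default expression filter, and quasi-likelihood tests in a single fit of 1 mean per genotype over 8 libraries, two-sided, with Benjamini-Hochberg adjustment over all 16262 genes and calls at an adjusted p below 0.05. Levels are means ± SD, and log2 fold changes carry an SE derived from the F statistic. The test was checked on simulated counts. Pairs of libraries of 1 genotype differed by 4.55 to 24.6 times the variance of counting, so none were merged. Floors and read counts cover counting error only, since reads that are PCR copies were not set apart.

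The members, the classes, the gene lists and the markers were chosen with earlier results of these data known. Values in every library, as FPKM or reads, are given for called members, the 3 of smallest unadjusted p in each contrast, the 4 of highest level among fibrillar and among type IV chains and the 2 of highest level in each other class. From the 5 lists of collagen-related genes the called genes and the 1 of smallest p in KO minus the WT and Het mean are named, and from the marker lists the called genes. Other genes, among them the non-overlapping members, were named after their values were seen. Alternatives were DESeq2 1.42.0, DESeq2 size factors, no filter, fits of the compared libraries alone, column set and Y-linked level as covariates, and leaving out each library. Figures were drawn with matplotlib 3.10.9.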

Additional observations from a re-analysis of the deposited data

How the results depend on the processing

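The count of called collagen genes depended on the tool and the filter. DESeq2 called 3 in KO minus Het and 3 in KO minus the WT and Het mean, and edgeR with no filter on low counts called 1 in KO minus WT and 4 in each of these comparisons. Both also called more of all genes (1.15% and 1.26% for DESeq2, 1.52% and 1.78% without the filter, against 0.191% and 0.332%). With the Y-linked level as a covariate edgeR called 0 in KO minus the WT and Het mean and 0 between the column sets. Leaving out 1 library gave 0 to 1 in KO minus the WT and Het mean and 0 to 5 between the column sets. The 5 came without KO 1-3, where more of all genes were called too. Edge cases of direction were small values. With the column set as a covariate Col14a1 stood at 0.0261, and with the Y-linked level Col1a2 at 0.0278, Col1a1 at 0.0340, Col7a1 at 0.0032, Col9a1 at 0.0304 and Col14a1 at 0.11, each above 0 where the value reported was below 0. Leaving out 1 library gave -0.11 to 0.0308 for Col1a2, -0.37 to 0.0315 for Col1a1, -0.27 to 0.0350 for Col3a1, -0.17 to 0.0295 for Col7a1, -0.10 to 0.0670 for Col9a1, -0.17 to 0.12 for Col14a1, -0.0758 to 0.33 for Col8a2 and, in KO minus Het, -0.0725 to 0.0439 for Prtg. It gave -0.0052 to 0.14 for the type IV median and -0.16 to 0.027 for the FACIT median. The causes were not tested. The column set comparison and the fits of class medians and of genes of other lists under each alternative were chosen after seeing the data. Only genotypes with 3 libraries keep 2 when 1 is left out. WT then has 1, which is assumed to vary like the other groups. No paired analysis was possible because the numbers in the column names match no sample number in the labels. The first of those numbers, the column set, was fitted as a covariate instead. Genes with few reads, such as Col25a1 (30 to 73 a library) and Col4a6 (26 to 47), are limited by depth.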
